A study of Mus musculus with 36 samples.

Results

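The regions described here are the islands of H3K36me2 and H3K27me3 in the control (Ctrl) hippocampus of newborn mice at postnatal day 0. An island is a stretch of the genome in which ChIP-seq reads lie more densely than in the input DNA, as called by SICER in each library separately. All islands on the 19 autosomes of the 2 Ctrl hippocampus H3K36me2 libraries and the 2 H3K27me3 libraries were taken, so 4 of the 36 samples of the series entered, out of 24 with an island file. H3K36me2 replicate 1 held 48300 islands and replicate 2 held 40677. H3K27me3 replicate 1 held 22281 islands and replicate 2 held 12116. The question was where along genes each mark lay, how far the marks shared bases, and how close their islands came to each other.

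Ctrl mice were Kdm2bfl/+ or Kdm2bfl/fl according to the labels, which do not tell these genotypes apart by library, and cKO mice, used below for comparison, were Kdm2bEmx1-delta-CxxC, in which Emx1-Cre removes the DNA-binding CxxC domain of KDM2B from the dorsal forebrain lineage. Neurospheres, the other comparison, were neural progenitor cultures grown from P0 hippocampi of Ctrl mice. The hippocampus is a mixture of neurons, progenitors, glia and vessel cells, so a mark carried by fewer cells and a weaker mark in every cell cannot be told apart, and islands of both marks in a gene need not come from the same cells. The labels do not say whether the libraries of a mark came from separate animals, so the spread between them may be partly technical.

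H3K27me3 is placed by Polycomb repressive complex 2 (PRC2) and marks silent developmental genes, often in wide domains and at CpG-rich promoters. H3K36me2 is placed mainly by NSD1, NSD2 and ASH1L over gene bodies and intergenic DNA, and it is a substrate of the demethylases KDM2A and KDM2B, which bind CpG-rich DNA. In other systems H3K36 methylation is known to hinder PRC2 on the same histone tail.

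The sequences before the starts of the leading H3K36me2 promoters show the kind of DNA on which that mark lay. They are the 250 bases upstream of the start of the first genes, in order of counts per kb of the island at the start, among promoters fully covered by H3K36me2 in both libraries and free of H3K27me3. They are printed in the direction of transcription from build GRCm38 (mm10), with each CpG in capitals. The genes are 3110040M04Rik, of which no role is given here, and Kat6b, a histone acetyltransferase.
3110040M04Rik at chr1:151203871-151204120, plus strand: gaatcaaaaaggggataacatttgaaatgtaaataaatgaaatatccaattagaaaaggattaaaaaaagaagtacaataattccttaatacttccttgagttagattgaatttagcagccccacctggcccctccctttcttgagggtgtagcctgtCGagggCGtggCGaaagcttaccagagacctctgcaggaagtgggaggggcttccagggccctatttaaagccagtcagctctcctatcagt
Kat6b at chr14:21481184-21481433, plus strand: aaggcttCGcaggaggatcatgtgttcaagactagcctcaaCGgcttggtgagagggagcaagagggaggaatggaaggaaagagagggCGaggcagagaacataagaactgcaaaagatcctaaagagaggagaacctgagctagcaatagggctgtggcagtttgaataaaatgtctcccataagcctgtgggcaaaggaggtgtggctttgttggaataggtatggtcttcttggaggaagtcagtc
Each held 3 CpG in this stretch, and 75.7% of the 20807 autosomal protein-coding genes of GENCODE vM21 had at least 3 in the same 250 bases. The leading H3K27me3 promoters, chosen in the same way, were those of Hoxc10, Hoxc11, Hoxc12, Hoxc13 and Hoxc4, homeodomain factors of body regions along the main axis. Their starts lay in a single H3K27me3 island, 199.6 kb wide at 74.1 counts per kb in replicate 1 and 177 kb wide at 65.8 counts per kb in replicate 2. The starts of Hoxc5, Hoxc6, Hoxc8 and Hoxc9 lay in the same island with fully covered promoters, and this tie was broken by gene name. The island at the start of Kat6b was 8.0 kb wide at 30.6 counts per kb in H3K36me2 replicate 1 and 8.8 kb wide at 29.5 in replicate 2. At 3110040M04Rik the H3K36me2 island was 10.6 kb wide at 46.1 counts per kb and 13.0 kb wide at 43.4.

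H3K36me2 came in many short islands and H3K27me3 in fewer, partly very wide ones. H3K36me2 islands covered 161 Mb of the autosomes in replicate 1 and 115 Mb in replicate 2, and their median width was 3.0 and 2.6 kb. H3K27me3 islands covered 123 and 54.6 Mb with a median width of 3.8 and 3.2 kb. The widest H3K36me2 island measured 26.2 kb and the widest H3K27me3 island 226 kb. Islands of at least 10 kb held 34.3% and 27.9% of the H3K27me3 length but 1.90% and 0.406% of the H3K36me2 length. The sums of counts in islands were 4492862 and 3106793 for H3K36me2 and 4345082 and 1672712 for H3K27me3, which are not sequencing depths, since the files hold no reads outside islands. The total covered length did not separate the marks: the log2 ratio of the means was 0.63, with H3K27me3 replicate 1 above H3K36me2 replicate 2 (exact permutation p = 0.667, two-sided, n = 2 and 2). That ratio was 0.16 without H3K27me3 replicate 2, 0.36 without H3K36me2 replicate 1 and 1.33 without H3K27me3 replicate 1.

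The replicates of H3K36me2 shared few bases at the scale of single islands. The 32.9 Mb covered in both libraries were 20.5% of replicate 1 and 28.8% of replicate 2, 4.28 times the overlap given by the share of the genome each covered. For H3K27me3 the shared 39.2 Mb were 31.8% of replicate 1 and 71.8% of replicate 2, 14 times that overlap. In 23779 bins of 100 kb the covered share of replicate 1 followed that of replicate 2 for both marks (Pearson r = 0.80 for H3K36me2 and 0.85 for H3K27me3, descriptive, since neighbouring bins and GC content are shared). H3K27me3 replicate 1 stood apart on chromosome X, where its islands covered 25.5 Mb against 0.243 Mb in replicate 2 and 0.0384 and 0.0752 Mb in the H3K36me2 libraries. Chromosome X was not used.

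Promoters separated the marks. Promoters, taken as 2 kb before and 2 kb after the start of the gene, make up 3.23% of the assembled autosomes, gene bodies 39.5% and intergenic DNA 57.3%. H3K27me3 covered 12% of promoter bases in replicate 1 and 9.17% in replicate 2, a mean of 10.6% ± 2.03 (SD, n = 2). H3K36me2 covered 1.99% and 1.44%, a mean of 1.71% ± 0.39 (SD, n = 2). Both H3K36me2 libraries therefore lay far below both H3K27me3 libraries, by 8.90 percentage points on average, which exceeds the spread within either mark (exact permutation p = 0.333, two-sided, the smallest p that 2 against 2 libraries allow). Relative to the share of the genome each library covered, promoters were enriched 2.34-fold and 4.02-fold for H3K27me3 and held 0.296 and 0.300 of the genome share for H3K36me2. The log2 ratio of H3K36me2 to H3K27me3 enrichment was -3.42 (exact permutation p = 0.333).

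**Figure D1:**
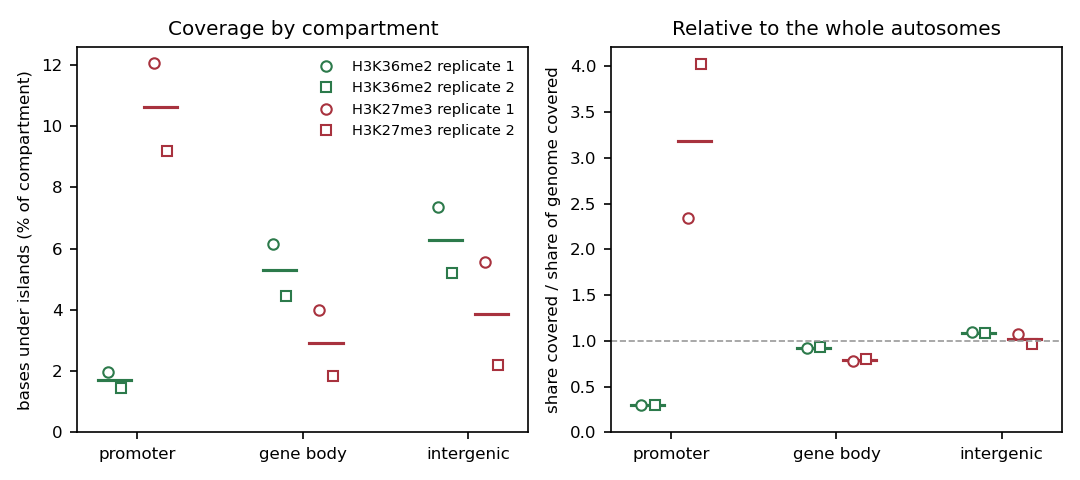
Share of bases under islands in promoters, gene bodies and intergenic DNA (left, percent of the compartment) and the same share divided by the share of all autosomes covered (right, dashed line at 1), for each of the 4 Ctrl hippocampus libraries. Circles are replicate 1, squares replicate 2 and bars the mean of both. H3K27me3 stands at 9.17% and 12% of promoter bases, above H3K36me2 at 1.44% and 1.99%, whereas intergenic shares of the marks overlap.

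Over gene bodies the order was the opposite, but the difference was small. H3K36me2 covered 6.16% and 4.46% of gene body bases, and H3K27me3 covered 4.0% and 1.83%. All values of H3K36me2 lay above those of H3K27me3, by 2.4 percentage points on average (exact permutation p = 0.333, the smallest possible), and this difference was 1.31 without H3K27me3 replicate 2, 1.55 without H3K36me2 replicate 1, 3.25 without H3K36me2 replicate 2 and 3.48 without H3K27me3 replicate 1. It rested on the covered length: at equal covered length, with the islands of each library kept from the highest counts per kb down, it was 0.115 percentage points. With islands of at least 2 kb alone it was 2.02, and the libraries of the marks overlapped (exact permutation p = 0.667). Both marks were below their genome share in gene bodies, at 0.917 and 0.933 of it for H3K36me2 and 0.777 and 0.802 for H3K27me3, a log2 ratio of 0.23 (exact permutation p = 0.333) that was 0.087 at equal covered length. Intergenic DNA held 62.8% and 62.1% of the H3K36me2 length and 61.7% and 55.3% of the H3K27me3 length. There H3K36me2 covered 7.37% and 5.19% of bases and H3K27me3 5.55% and 2.20%, so the marks overlapped (exact permutation p = 0.667). The intergenic difference, 2.4 percentage points, was 0.73 without H3K27me3 replicate 2, 1.31 without H3K36me2 replicate 1 and 4.07 without H3K27me3 replicate 1. At equal covered length it was 0.341, with no overlap of the marks (exact permutation p = 0.333). Intergenic enrichment was 1.10 and 1.09 for H3K36me2 against 1.08 and 0.967 for H3K27me3, a log2 ratio of 0.094. It was 0.017 without H3K27me3 replicate 2, 0.17 without replicate 1, 0.20 at equal covered length, and -0.026 when only genes of at least 10 kb counted as genes.

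The position within genes was followed in 13520 genes of at least 10 kb. H3K27me3 rose towards the start from 6.69% and 2.79% of bases at 19 to 20 kb upstream to 11.0% and 8.39% in the last kb before it. Replicate 1 was highest, at 12.3%, at 2 to 3 kb upstream and fell from there to the start, whereas replicate 2 rose up to the start. In the same last kb H3K36me2 was at 1.71% and 1.30%, down from 5.24% and 4.01% at 19 to 20 kb. Past the start the curves crossed. In the first 5% of the gene H3K27me3 still covered 9.83% and 6.31% and H3K36me2 3.99% and 2.90%, whereas at 10% to 15% of the gene H3K27me3 was at 4.47% and 2.09% and H3K36me2 at 6.58% and 4.73%. H3K36me2 then stayed between 4.34% and 6.97% in replicate 1 until the end of the gene, with its lowest value in the last 5%, and fell to 2.70% and 1.81% in the first kb after it. Thus each H3K36me2 library was depleted at both ends of genes, and each H3K27me3 library was highest around the start.

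**Figure D2:**
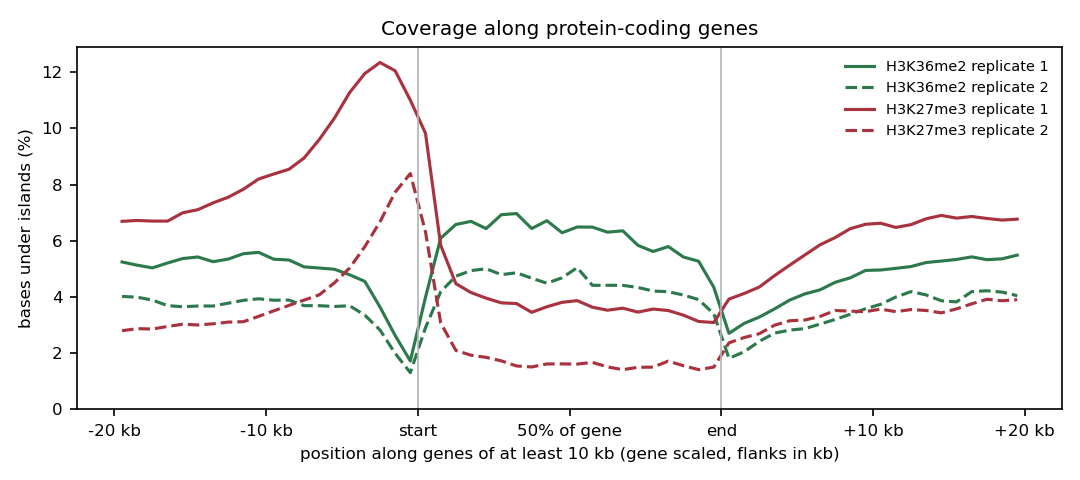
Share of bases under islands (percent) along 13520 protein-coding genes of at least 10 kb, with 20 kb on each side in steps of 1 kb and the gene scaled to its own length in steps of 5%. Solid lines are replicate 1 and dashed lines replicate 2. H3K27me3 is at 11.0% and 8.39% in the last kb before the start, where H3K36me2 is at 1.71% and 1.30%, and the marks cross inside the gene.

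The CpG content of promoters divided H3K36me2 more than H3K27me3. A promoter was called CpG-rich when the 1 kb around the start had over 50% GC and a ratio of observed to expected CpG over 0.6, which held for 9507 of the 20807 promoters. In the 1 kb after the start of CpG-rich promoters H3K36me2 covered 0.058% and 0.055% of bases, against 2.94% and 2.08% at the other promoters. H3K27me3 covered 10.6% and 10.2% of the same 1 kb at CpG-rich promoters and 11.7% and 8.53% at the others. H3K36me2 was back at 2.42% and 2.16% at 4 to 5 kb inside CpG-rich genes. The lowest H3K36me2 coverage therefore lay at the start itself, in both libraries.

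Each gene was then classed by islands of at least 1 bp. At promoters, 2211 of 20807 genes (10.6%) had H3K27me3 in both libraries and H3K36me2 in neither, 261 (1.25%) had H3K36me2 in both and H3K27me3 in neither, and 12 (0.0577%) had both marks in all 4 libraries. No island of either mark was found at 15396 promoters, and the other 2927 differed between replicates. The small classes depend on the libraries that must share a call: with H3K36me2 replicate 1 left out, 751 promoters were H3K36me2-only and 36 had both marks, and with replicate 2 left out the counts were 926 and 53. Without H3K27me3 replicate 2, 3464 promoters were H3K27me3-only. With a promoter of 1 kb on each side, 143 promoters were H3K36me2-only and 0 had both marks. Of the H3K27me3-only promoters 53.7% were CpG-rich, of the H3K36me2-only promoters 10.7%, and of all promoters 45.7%. The median CpG count in the 250 bases before the start, the window printed above, was 11 for H3K27me3-only promoters, 4 for H3K36me2-only promoters and 8 for all.

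Over whole genes with their 2 kb upstream, the classes were of similar size but held genes of different length. H3K27me3-only genes numbered 1980 (9.52%), H3K36me2-only genes 2007 (9.65%) and genes with both marks 809 (3.89%). The median length was 12.3 kb for H3K27me3-only genes, 76.1 kb for H3K36me2-only genes, 149 kb for genes with both and 17.6 kb for all genes. A longer gene has more room for an island, and the covered share was read beside the counts. In the quartile of the shortest genes, up to 6.68 kb, H3K27me3 covered 12.5% and 9.73% of bases and H3K36me2 1.82% and 1.19%. In the quartile of the longest genes, from 45.6 kb, H3K27me3 covered 3.93% and 1.72% and H3K36me2 6.71% and 4.83%. The order of the marks thus differed between short and long genes by covered share too. The promoter makes up more of the window of a short gene. This difference therefore cannot be told apart from that between promoters and gene bodies described above. Without H3K27me3 replicate 2 the H3K27me3-only genes numbered 3142. With an island required over at least 50% of the gene they numbered 661, the H3K36me2-only genes 16 and the genes with both 0.

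Among genes without H3K36me2, those with the most H3K27me3 were led by Ebf3, Tox2 and Casz1. Ebf3 (chr7:137193673-137314445), a helix-loop-helix factor of neuronal differentiation, was 121 kb long and had 121 and 114 kb under H3K27me3 in the window with its upstream 2 kb. Tox2, an HMG-box factor, had 119.2 and 98.2 kb under the mark and Casz1, a zinc finger factor, 122 and 95.4 kb. Hmga2, a chromatin protein of proliferating progenitors, had 114 and 82.9 kb. Pax3, a factor of dorsal neural tube and muscle, had 94.9 and 80.5 kb and Lmx1b, a LIM homeodomain factor of midbrain neurons and limb, 76.5 and 67.1 kb. The other genes of this group were Cfap77, Rimbp2, Pbx3 and Lgr5, with 55.8 to 66.5 kb in replicate 2 and 99.1 to 139 kb in replicate 1. All 10 had 0 kb of H3K36me2 in both libraries, which is the rule that chose them, and 8 of them had their promoter fully covered by H3K27me3 in replicate 1, the exceptions being Cfap77 at 20% and Pbx3 at 25%.

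Among genes without H3K27me3, those with the most H3K36me2 were 381 to 1998 kb long. Macrod2 (chr2:140395309-142392966), a deacetylase of ADP-ribosylated proteins that is 1998 kb long, had 246 and 179 kb under H3K36me2, or 12.3% and 8.95% of its window. Cdkal1, a tRNA-modifying enzyme, had 209 and 140 kb of 664 kb. Sorcs2, a sorting receptor of neurons (chr5:36017180-36398139), had 131 and 108 kb of 381 kb, the largest share of the 10 genes at 34.2% and 28.2%. The others were Pard3b, a polarity protein, Slc9a9, an endosomal sodium-proton exchanger, Agbl1, Lpp, Fars2, a mitochondrial tRNA synthetase, Celf2, an RNA-binding splicing factor, and Slc14a2, a urea transporter. Agbl1 had its promoter covered fully in both libraries. In Celf2 it was covered in replicate 1 alone, at 100% against 0%.

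Genes with both marks in all 4 libraries had a median length of 149 kb. Foxp1 (chr6:98925338-99522721), a forkhead factor of neurons, had 67.6 and 52 kb of H3K36me2 and 122 and 49.4 kb of H3K27me3 in 597 kb. Wwox, an oxidoreductase in a long fragile gene, had 60.2 and 62.1 kb of H3K36me2 against 415 and 173 kb of H3K27me3. Lrmda had 164 and 110 kb against 323 and 94.7 kb. The first and second of this group by length covered, Gm20388 and Fgfr2, are annotated over 4435 and 2961 kb and span other genes, so their values are not those of a single transcription unit.

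The gene lists showed which kinds of genes carried each mark, beside the background of 10.6% H3K27me3-only and 1.25% H3K36me2-only promoters. All 39 Hox genes had H3K27me3-only promoters, and H3K27me3 covered 100% of their promoter bases in both libraries. Of 30 factors of non-neural lineages 28 had H3K27me3-only promoters, among them Gata4, of heart and gut, with 63.1 and 43.3 kb of the gene covered, and Tbx3, of limb and heart, with 16.1 kb in each library. Of 15 genes of the ventral telencephalon and the GABAergic lineage 13 did, among them Dlx2, covered over 5.35 kb in both libraries. Gad1, which makes GABA, had no island at its promoter but 16.0 and 16.8 kb of H3K27me3 further inside the gene. None of the genes of these 3 lists had an H3K36me2 island at its promoter in any library. Most promoters had none: 15396, 1634 and 2211 of all 20807 lacked it beside H3K27me3 in 0, 1 and 2 libraries. The median gene length was 3.49 kb for Hox genes, 24.8 kb for non-neural factors and 5.24 kb for the ventral and GABAergic genes, beside 17.6 kb over all genes.

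Hippocampal and cortical neuron factors were divided. Of 23, 10 had H3K27me3-only promoters, 11 had no island of either mark there and 0 were H3K36me2-only. Those with H3K27me3 included Pax6, of radial glia, with 100% of the promoter covered in both libraries, and Eomes, which marks intermediate progenitors, with 100% and 80%. Neurod1, of early neurons, had 75% and 51.2% and Prox1, of dentate granule cells, 17.8% and 12.8%. Emx1 and Emx2, homeodomain factors of the dorsal telencephalon, had no island of either mark in the gene or promoter, and neither had Sox2, a factor of neural progenitors. Zbtb20 and Nfib, factors of hippocampal and glial fate, were H3K36me2-only over the gene, with 12.8 and 4.8 kb and with 20.2 and 20.6 kb. In Zbtb20, which is 767 kb long, this was 1.67% and 0.624% of the gene, and in Nfib 4.84% and 4.93%. Of all autosomes H3K36me2 covered 6.72% and 4.78%. At the genes with island-free promoters the absence of an island sets no count, since the files hold none outside islands.

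Ligands and receptors of the Wnt pathway differed in how often H3K27me3 lay at the promoter. Among 19 Wnt ligands 16 had H3K27me3-only promoters and 2, Wnt5a and Wnt7a, had no island there. Among 24 receptors and effectors 4 did (Fzd5, Fzd6, Fzd10 and Lef1), 1, Apc, was H3K36me2-only, and 14 had no island. Wnt3 had 30.1 and 20.9 kb of its gene under H3K27me3 with a fully covered promoter, Wnt6 15.4 kb in both libraries and Wnt10a 14.7 and 9.46 kb. Sfrp2, a secreted Wnt antagonist, had 38% and 45% of its promoter covered. None of Wnt3, Wnt6, Wnt10a and Sfrp2 had an H3K36me2 island over the gene. Such absence was common: 11321, 1583 and 1980 of all 20807 genes lacked it beside H3K27me3 in 0, 1 and 2 libraries. Of the 19 ligands, 5 had H3K36me2 over the gene in both libraries, beside 16.1% of all genes. The mark covered 9.20% and 5.99% of the ligand genes with their 2 kb upstream, beside 6.72% and 4.78% of the autosomes. Wnt7a was the H3K36me2-only ligand, with 1.4 and 2.4 kb. Over the gene, 5 receptors and effectors were H3K36me2-only, Apc, Fzd3, Gsk3b, Lrp5 and Tcf7, and 2 were H3K27me3-only, Fzd5 and Fzd10. H3K36me2 covered 0.267% and 2.58% of Apc, 2.50% and 3.89% of Fzd3, 1.89% and 1.01% of Gsk3b and 4.82% and 8.64% of Lrp5. Of all autosomes it covered 6.72% and 4.78%, so most of these calls rest on little covered length. At the Apc promoter it covered 6.9% and 1.9% of bases.

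Wnt7b and Lef1 carried both marks in separate places. In Wnt7b (chr15:85535437-85582473), H3K27me3 islands reached from 1.27 to 4.87 kb after the start in replicate 1 and from -1.13 to 0.473 and 2.47 to 5.47 kb in replicate 2. H3K36me2 islands of replicate 1 began at 7.07 kb and those of replicate 2 at 32.3 kb inside the gene. Replicate 2 also had H3K36me2 upstream, at -14.1 to -12.9 kb and -24.1 to -18.7 kb. In Lef1, a transcription factor of Wnt signalling, H3K27me3 lay at -4.27 to -0.67 kb and -4.27 to -1.27 kb before the start, and the first H3K36me2 island inside the gene began at 7.13 kb in replicate 1 and at 54.3 kb in replicate 2.

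**Figure D3:**
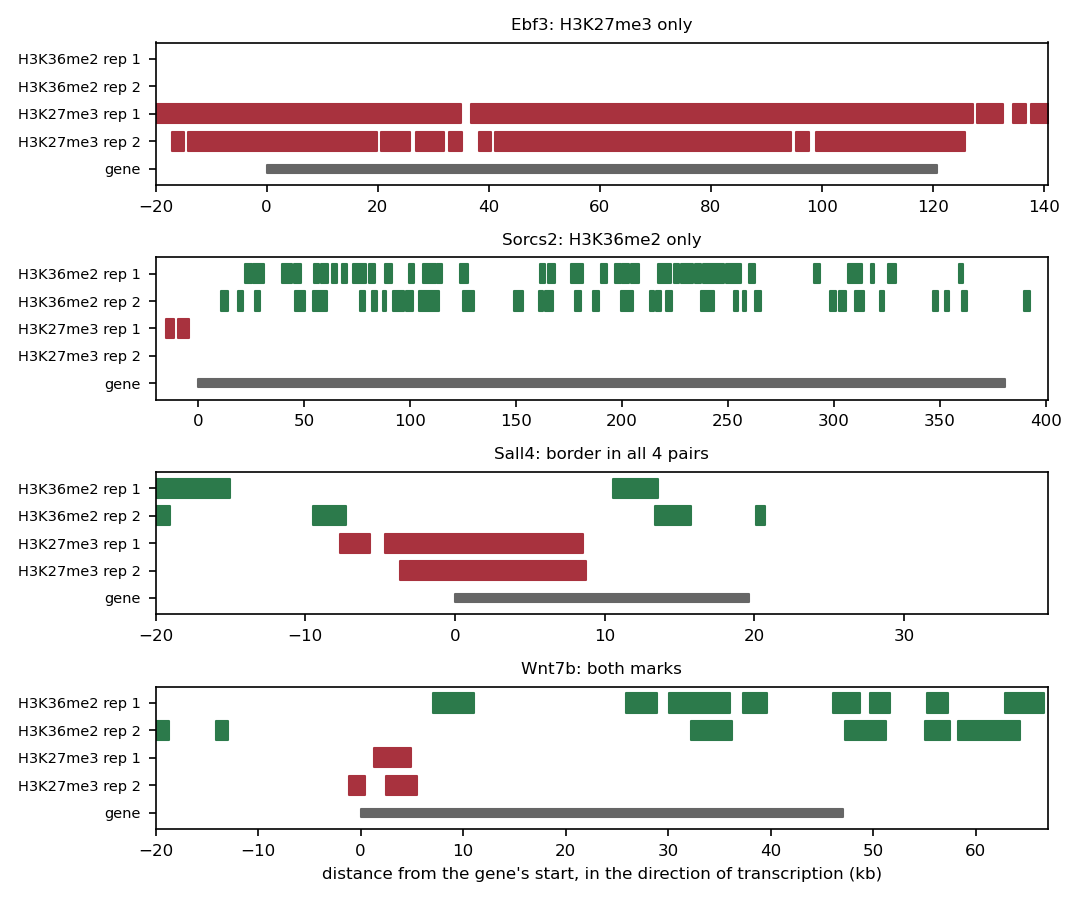
Islands of the 4 Ctrl hippocampus libraries around Ebf3, Sorcs2, Sall4 and Wnt7b by distance from the gene's start in kb, in the direction of transcription. Grey bars are the annotated genes, green bars H3K36me2 islands and red bars H3K27me3 islands. Ebf3 is under H3K27me3 nearly throughout, Sorcs2 holds many H3K36me2 islands, and in Sall4 and Wnt7b H3K27me3 lies near the start with H3K36me2 further inside. H3K36me2 also lies upstream of Sall4 in both replicates and upstream of Wnt7b in replicate 2.

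Long neuronal genes of adhesion, synapses and channels carried both marks more often than either alone. Of 30, 17 had both marks over the gene, 5 were H3K36me2-only and 1 was H3K27me3-only. Their median length was 944 kb. The share with both marks was 3.89% among all genes and 13.3% in the quartile of the longest genes, which begins at 45.6 kb. Genes of matched length were not compared, so the count cannot be told apart from gene length. By covered share they held less than gene bodies as a whole, at 4.10% and 3.05% for H3K36me2 beside 6.16% and 4.46%, and at 3.64% and 1.0% for H3K27me3 beside 4.0% and 1.83%. Members differed widely. Rbfox1, a neuronal splicing factor, had 342 and 56.0 kb of H3K27me3 against 17.2 and 5.6 kb of H3K36me2. Cntnap2 and Auts2 were the other way round, with 86.4 and 77.0 kb and with 123 and 66.8 kb of H3K36me2 against 13.4 and 1.8 kb and 11.0 and 3.0 kb of H3K27me3. Nlgn1, a synaptic adhesion protein, was H3K36me2-only, with 24 and 33.2 kb.

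Islands were rarer at ribosomal protein and olfactory receptor genes than over all genes, of which 74.0% had no island at the promoter and 54.4% none over the gene. Over the gene 88% and 88.5% of these lists had none. Their median gene length was 3.37 and 5.98 kb. In the quartile of the shortest genes, up to 6.68 kb, 72.7% had no island over the gene, and genes of matched length were not compared. Of 75 cytoplasmic ribosomal protein genes 66 had no island of either mark at the promoter and 2, Rpl17 and Rpl38, were H3K27me3-only. Of 1087 olfactory receptor genes, which are silent outside the nose, 994 promoters had none and 10 were H3K27me3-only. Genes for enzymes and partners of H3K36 methylation and Polycomb were near the share of all genes, since 19 of 34 had no island over the gene. Of their promoters 26 had none and 3 were H3K27me3-only, among them Cbx8 and Pcgf1, both of PRC1. Dnmt3a, a DNA methyltransferase, and Kdm4b, a demethylase, were H3K36me2-only over the gene.

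Marker genes of cell types were counted in the same way. Among all genes 74.0% of promoters had no island, 10.6% were H3K27me3-only and 1.25% H3K36me2-only. Of 10 neuron markers, 9 promoters had no island of either mark and 0 were H3K27me3-only, and of 8 radial glia and astrocyte markers 5 had none and 0 were H3K27me3-only. H3K27me3-only promoters were found for 4 of 8 oligodendrocyte lineage markers, 3 of 6 endothelium markers, 2 of 5 choroid plexus markers, 1 of 8 microglia markers and 0 of 6 blood markers. H3K36me2-only promoters were those of Mog, a myelin protein, Spi1, a factor of microglia, and Aqp1, a water channel of choroid plexus. Mog had 80.1% of its promoter covered in both libraries, Spi1 75% and 60%, and Aqp1 85% and 10.8%. These lists are short, several of their shares lie near those of all genes, and histone marks do not measure expression. The counts therefore do not serve as a check of the tissue.

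**Figure D4:**
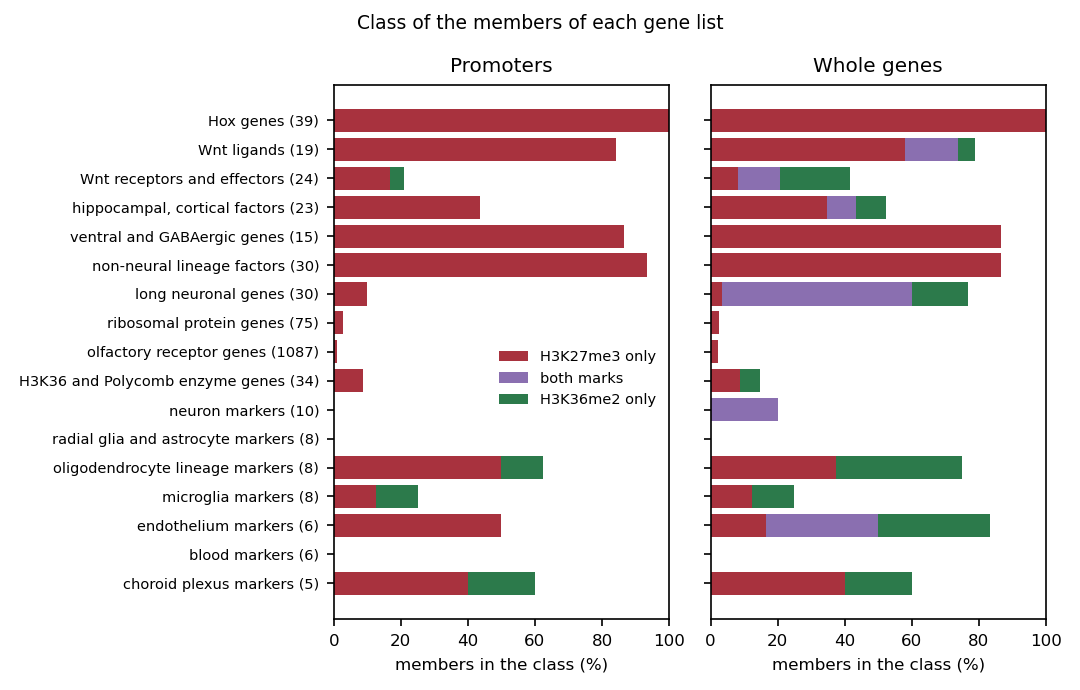
Share of the members of each gene list (number of genes in parentheses) that had H3K27me3 in both libraries and H3K36me2 in neither (red), both marks in all 4 libraries (purple) or H3K36me2 in both and H3K27me3 in neither (green), at promoters (left) and over whole genes (right). Among all genes the promoter shares are 10.6%, 0.0577% and 1.25% and the whole-gene shares 9.52%, 3.89% and 9.65%. Hox genes are at 100% red, and 17 of 30 long neuronal genes carry both marks.

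The marks shared fewer bases than their genome shares give. In the 4 pairs of an H3K36me2 and an H3K27me3 library, 2.78, 0.763, 1.72 and 0.529 Mb were shared, against 8.28, 3.67, 5.89 and 2.61 Mb if the marks were placed independently. The ratio was 0.336 and 0.208 for H3K36me2 replicate 1 with H3K27me3 replicates 1 and 2, and 0.292 and 0.203 for H3K36me2 replicate 2. Within promoters it was 0.198 to 0.288, within gene bodies 0.230 to 0.372 and within intergenic DNA 0.208 to 0.332, so it was below 1 in each compartment of each pair. Of the 32.9 and 39.2 Mb covered in both libraries of a mark, 0.033 Mb carried both marks, 0.062 of the expected 0.539 Mb. These ratios compare libraries and carry no p.

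Both marks covered more of the bins of the highest than of the lowest GC content. The share of H3K36me2 in 100 kb bins was 2.19% and 1.78% in the lowest GC quintile and 9.74% and 6.74% in the highest. That of H3K27me3 was 0.647% and 0.293% in the lowest and 10.2% and 5.45% in the highest. The marks differed at the upper end. H3K36me2 was highest in quintile 4, at 10.1% and 7.07%, whereas H3K27me3 was at 7.52% and 2.88% there and rose further. With the expected overlap taken within these quintiles, an alternative chosen after the values were seen, the ratio was 0.261 and 0.158 for H3K36me2 replicate 1 and 0.230 and 0.159 for replicate 2. Over the bins themselves the shares of the marks were weakly negatively correlated, with Pearson r between -0.13 and -0.10 in the 4 pairs (23779 bins, descriptive).

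Wide H3K27me3 islands held the least H3K36me2. In H3K27me3 replicate 1, 1.43% of the length of islands of 10 kb and over lay under an H3K36me2 island of either library, against 4.91% for islands of 2 to under 5 kb. In replicate 2 the shares were 0.406% and 3.41%. Among the 22281 islands of replicate 1, 2193 (9.84%) touched H3K36me2, with a median of 29.0 counts per kb against 30.3 for the rest. In replicate 2, 763 of 12116 (6.30%) did, with 23.2 against 25. The touching islands thus had slightly fewer reads per kb in both libraries.

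H3K36me2 was low not only inside H3K27me3 islands but also around them. Relative to its genome share, H3K36me2 stood at 0.203 to 0.336 inside H3K27me3 islands, at 0.349 to 0.481 within 1 kb outside, at 0.625 to 0.704 at 2 to 5 kb and at 0.752 to 0.844 at 5 to 10 kb. It reached 0.922 to 0.985 at 20 to 50 kb and 1.03 to 1.06 at 50 to 100 kb. H3K27me3 around H3K36me2 islands rose in the same way, from 0.223 to 0.379 within 1 kb to 0.796 to 0.985 at 10 to 20 kb and 1.30 to 1.37 at 50 to 100 kb. The rise with distance held in each of the 4 pairs.

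**Figure D5:**
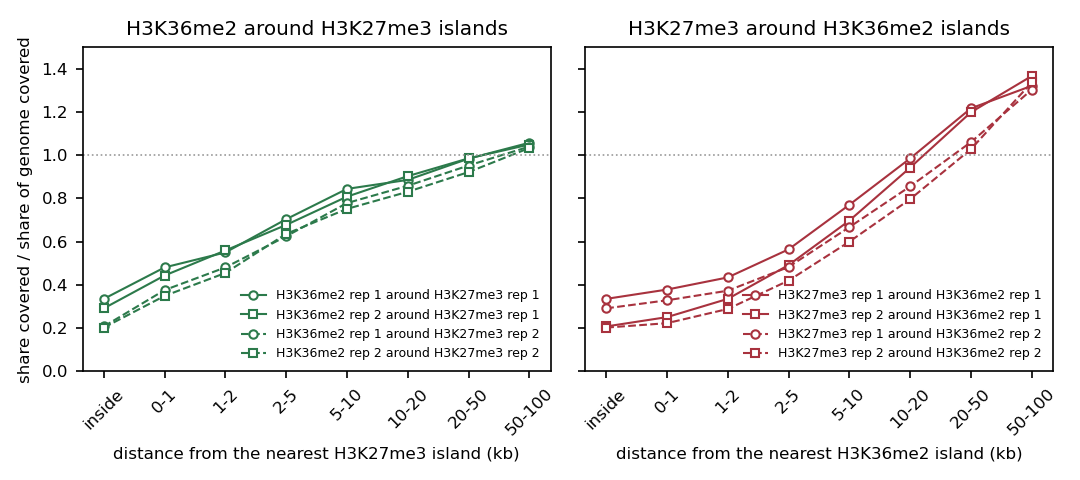
Share of bases under one mark in shells around islands of the other, divided by the share of all autosomes that the measured library covers (dotted line at 1), by distance from the nearest island in kb. Left, H3K36me2 around H3K27me3 islands; right, H3K27me3 around H3K36me2 islands; each line is one pair of Ctrl hippocampus libraries. H3K36me2 climbs from 0.203 to 0.336 inside to 1.03 to 1.06 at 50 to 100 kb.

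Borders were places where islands of the marks lay at most 5 kb apart with no overlap. Of 44562 edges of H3K27me3 islands in replicate 1, 2377 (5.33%) had H3K36me2 of replicate 1 within 5 kb outside the edge. As background, 14.9% of the genome lay within 5 kb of such an island on either side. The share was 4.82% of 24232 edges for H3K27me3 replicate 2 with H3K36me2 replicate 1. With H3K36me2 replicate 2 it was 4.17% and 3.95% against a background of 13.5%. The ratio to the background was 0.292 to 0.358 in the 4 pairs. Each edge was searched on its outer side only, whereas the background counts both sides of an island. These ratios therefore overstate the shortage of borders, and a background of one side was not computed. A further 1.48% to 2.98% of the edges lay inside an H3K36me2 island. The count of gaps changed little at the 5 kb limit, with 340 gaps of 4 to 5 kb and 340 of 5 to 6 kb in the pair of replicates numbered 1, and 169 and 169 in the pair numbered 2. The 4 pairs held 951 to 2147 borders with a median gap of 2.4 kb, and 57.0% to 64.5% of them were intergenic.

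Few borders recurred. Of the 2147 borders between the libraries numbered 1, 98 (4.56%) had one within 5 kb in each of the other 3 pairs. Of these, 51 were intergenic, 40 lay in gene bodies and 7 in promoters. In the 40 that could be assigned to exactly 1 gene, H3K27me3 was on the side of the start in 25 and H3K36me2 in 15. Within 73 genes each of the 4 pairs had a border, which need not lie at the same place in each pair. Sall4, a zinc finger factor of early embryos (chr2:168748332-168767943), was the gene with the longest flanking islands. Its H3K27me3 island of 13.2 and 12.4 kb spanned the start and ended 8.54 and 8.74 kb inside the gene, and H3K36me2 followed from 10.5 kb in replicate 1 and 13.3 kb in replicate 2. The gap was 2000 and 1800 bp to H3K36me2 replicate 1 and 4800 and 4600 bp to replicate 2. Upstream of Sall4, H3K36me2 lay at -20.1 to -15.1 kb in replicate 1 and at -9.46 to -7.26 kb in replicate 2. The latter overlapped a further H3K27me3 island of replicate 1 at -7.66 to -5.66 kb. Robo3, an axon guidance receptor, and Slc6a2, the noradrenaline transporter, had the same order from the start. In Robo3 H3K27me3 ended at 6.85 and 5.85 kb and H3K36me2 began at 9.25 and 8.45 kb, although replicate 1 had a further H3K27me3 island at 9.65 to 16.0 kb that overlapped the H3K36me2. In Slc6a2 H3K27me3 ended at 4.72 and 4.92 kb and H3K36me2 began at 8.32 and 9.12 kb. Sec31b, a coat protein gene of transport vesicles, had gaps of 3600 to 4800 bp. Foxp1 held a recurrent border with a gap of 1600 bp between the libraries numbered 1, with H3K36me2 towards the start.

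H2AK119ub1, the mark of Polycomb repressive complex 1 (PRC1), was read in the Ctrl hippocampus as a measure that the classes had not used. Its islands covered 21.8% and 59.2% of the bases with H3K27me3 in both libraries and no H3K36me2, and 2.28% and 8.94% of those with H3K36me2 in both and no H3K27me3. Of the bases with neither mark it covered 1.19% and 4.54%, and of the autosomes 1.87% and 6.56%. At promoters, H2AK119ub1 replicate 1 had an island at 32.1% of the H3K27me3-only class, 9.58% of the H3K36me2-only class and 6.33% of all genes, and replicate 2 at 72.2%, 20.3% and 18.1%. Genes with both marks had H2AK119ub1 most often, 77.5% and 90.1% of them over the gene, beside 16.3% and 27% of all genes, and they were also the longest genes. H3K27me3-only genes had it over the gene in 36.6% and 64.9%, and H3K36me2-only genes in 34.6% and 48.6%. Of the 0.033 Mb with both marks in all 4 libraries, it covered 12.7% and 75.3%. These bases thus lay below the H3K27me3-only bases in replicate 1 and above them in replicate 2. The order of the other classes above was the same in both libraries, which differ widely in covered length, 44.9 and 157 Mb.

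The classes were also read in hippocampus of cKO mice and in neurospheres. Of the 2211 H3K27me3-only promoters, 80.4% had H3K27me3 in both cKO libraries and 74.7% in both neurosphere libraries, against 13.2% and 22.9% of all promoters. Of the 261 H3K36me2-only promoters, 34.9% had H3K36me2 in both cKO libraries and 58.6% in both neurosphere libraries, against 1.76% and 12.3% of all. H3K27me3 lay in both neurosphere libraries at 20.3% of the H3K36me2-only promoters, near the 22.9% of all. Over whole genes, 73.8% of the H3K36me2-only class had H3K36me2 in both cKO libraries beside 16.5% of all genes. Of the H3K27me3-only class 80.1% had H3K27me3 in both cKO libraries, beside 19.1% of all genes.

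The low overlap of the marks was compared with that in the other sources, by same-numbered pairs. In Ctrl hippocampus the ratio to the genome share was 0.336 and 0.203. In cKO hippocampus it was 0.524 and 0.491, and in Ctrl neurospheres 0.953 and 0.818. Both Ctrl hippocampus pairs lay below both pairs of each other source (exact permutation p = 0.333 for each, two-sided, the smallest that 2 against 2 allow). The log2 difference from cKO hippocampus was -0.92, but -0.60 without Ctrl replicate 2 and -1.32 without Ctrl replicate 1. The covered lengths differ between sources, however, at 245 and 239 Mb for H3K27me3 and 370 and 431 Mb for H3K36me2 in neurospheres. With the islands of each library kept from the highest counts per kb down to 54.6 Mb, an alternative chosen after the values were seen, Ctrl hippocampus was at 0.158 and 0.194 and cKO hippocampus at 0.235 and 0.150. The hippocampus genotypes then overlapped (exact permutation p = 1). Neurospheres were at 0.705 and 0.251 (exact permutation p = 0.333), with the gap to hippocampus resting mostly on H3K36me2 replicate 1, since its pairs were at 0.705 and 0.793 and those of replicate 2 at 0.186 and 0.251.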

How the data were processed

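Chromatin of papain-dissociated hippocampi was crosslinked, cut with MNase and sonication, and precipitated with antibodies against H3K36me2 (CST #2901S) or H3K27me3 (CST #9733S). The authors trimmed reads with cutadapt, aligned them to mm10 with Bowtie2 2.4.5, removed duplicates and called islands per library with SICER (version not given in the sources used here) against input, with windows of 200 bp, gaps of 600 bp and an FDR of 0.01. Each deposited file holds island positions and the raw count of reads per island, not normalised by the authors. Depth outside islands is unknown. Counts from different antibodies were not put in a count model, and covered bases were compared instead.

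Groups and replicate numbers came from the labels. Overlaps needed at least 1 bp. Of 24 island files 14 were used, and 10 were not. Marks and sources were compared with exact permutation tests on the values of single libraries, both sides counted. Genes were those of GENCODE vM21 and sequences came from GRCm38.p6. The scripts ran under Python 3.11.15 (numpy 2.4.6, pandas 2.3.3, scipy 1.17.1) and were tested on simulated islands, where all planted genes and gaps were found. The regions, gene lists and tests were chosen with earlier results of these data known. Named genes were the 10 of each single-mark class with the longest covered length in the library where it was shorter, the 5 promoters of each class with the highest counts per kb at the start, the 5 genes with both marks and the most covered length, the 5 border genes with the longest flanking islands, members in the rarer class of their list, and Wnt7b, Wnt3, Wnt6, Wnt10a, Sfrp2, Lef1, Pax6, Eomes and Neurod1. Other list members named in the text were chosen after their values were seen. Alternatives were islands of at least 2 kb, equal covered length, leaving out each library, a replicate block, narrower promoters, islands over at least 50% of the window, genes overlapping no other, genes of at least 10 kb, and border limits of 2 and 10 kb. Some named genes and sequences that this rule covers are not reported here.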

Additional observations from a re-analysis of the deposited data

Results flagged for a closer look

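The intergenic enrichment of the marks went opposite ways in Ctrl hippocampus and Ctrl neurospheres. The log2 ratio of H3K36me2 to H3K27me3 enrichment was 0.025 and 0.17 in the same-numbered hippocampus pairs and -0.49 and -0.35 in the neurosphere pairs, a neurosphere mean of -0.42 (exact permutation p = 0.333, two-sided, the smallest that 2 against 2 pairs allow). Each H3K36me2 library of hippocampus, at 1.10 and 1.09 of its genome share, lay above each H3K27me3 library, at 1.08 and 0.967. In neurospheres H3K36me2, at 0.746 and 0.806, lay below H3K27me3, at 1.05 and 1.03. Over gene bodies neurosphere H3K36me2 was at 1.39 and 1.32 of its genome share, against 0.917 and 0.933 in hippocampus. Culture and covered length differ together between the sources, and their parts cannot be told apart.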

How the results depend on the processing

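Over 17 results and 139 alternative values, 117 kept their direction and, for counts, stayed within 1.5 times the reported value, 21 moved and 1 reversed. No p could fall below 0.333, so none passed 0.05, but the separation of the libraries changed: the gene body share lost it with islands of at least 2 kb (difference 2.02, exact permutation p = 0.667) and the intergenic share gained it at equal covered length (0.341, exact permutation p = 0.333). Values that kept their direction could shrink: at equal covered length the gene body difference was 0.115 percentage points, beside 2.4, and the log2 overlap against cKO hippocampus -0.13, beside -0.92. Without H3K27me3 replicate 2 the log2 ratio of covered length was 0.16, beside 0.63. The intergenic enrichment reversed, to a log2 ratio of -0.026, with genes of at least 10 kb. At equal covered length, H3K36me2-only promoters numbered 85, promoters with both marks 1, H3K36me2-only genes 1250 and genes with both marks 373, with a log2 overlap ratio of -2.66 and a log2 edge ratio of -1.90, where the values as reported were -1.98 and -1.64. With promoters of 1 kb on each side there were 143 H3K36me2-only promoters and 0 with both marks. With islands over at least 50% of the window, 74 promoters were H3K36me2-only and 0 had both, 661 genes were H3K27me3-only, 16 H3K36me2-only and 0 had both. The log2 edge ratio, whose background counts both sides of islands, was -1.96 at a limit of 2 kb and -1.35 at 10 kb. The counts with both marks, and all counts with islands over at least 50% of the window, could only fall, as fewer bases or genes qualify. At equal covered length or with narrower promoters, the single-mark counts could rise or fall, since they also require that the other mark is absent. The cause of their change and of that of the ratios was not tested. Without one library, H3K27me3-only promoters numbered 2235 to 3464, H3K36me2-only promoters 264 to 926, promoters with both marks 15 to 53 and H3K27me3-only genes 2152 to 3142. With same-numbered libraries paired in a replicate block, the log2 ratio of covered length was 0.73, that of promoter enrichment -3.36, that of gene body enrichment 0.23 and that of intergenic enrichment 0.096, and for the overlap against cKO hippocampus -0.96 and against neurospheres -1.76 (exact sign-flip p = 0.5 over 2 pairs, the smallest possible). The block changed no direction. Whether equal numbers share chromatin is not given: the study's methods describe a lysate divided among the antibodies, whereas the labels list separate inputs for H3K36me2 in the hippocampus. The differences between replicates of the marks correlated at -0.032 over 23779 bins of 100 kb, and the libraries were treated as unpaired. Islands give no depth, so weak marking below the calling limit cannot be seen.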
